A study of Homo sapiens with 6 samples.

Results

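The zinc finger genes of proximal 19q13 are the protein-coding genes with ZNF or ZFP symbols that start between 34 and 45 Mb of chromosome 19 (GRCh38). Of 63 such genes, 62 had a mean normalized value of at least 10 over the 6 libraries, among 16347 genes that passed the same minimum. ZNF404, with a mean of 7.30, lay just under the minimum, and ZNF575, the member nearest above it, had a mean of 36.4. No member had all libraries of a group within the detection limit of 3 reads, so none of them entered through 1 group alone.

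H526 is a line from small cell lung cancer of the POU2F3 subtype. RNA was sequenced in 3 libraries of the parental cells (1, 2 and 3) and in 3 of its onvansertib-resistant derivative (7, 8 and 9), to look for changes that accompany acquired resistance. The resistant cells came from growth over a year in onvansertib, an inhibitor of the mitotic kinase PLK1, raised from 10 to 75 nM. Both groups derive from the same line, and RNA was taken at 3 separate times from each line. Whether the resistant line is a clone or a mixed population, and whether parental cells were carried in culture alongside, is not given in the sources used here. Each group is therefore 1 line, and the p-values measure the spread between RNA collections of 2 lines.

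Most genes with these symbols encode proteins with tandem C2H2 zinc fingers, in which a zinc ion holds each finger and successive fingers read successive bases of DNA. Many also carry a KRAB box, which recruits TRIM28 (KAP1) and through it the histone methyltransferase SETDB1, HP1 proteins and histone deacetylases. KRAB zinc finger genes arose by repeated tandem duplication, lie in clusters on chromosome 19, and are known for binding and silencing transposable elements and some genes. ZFP36 shares the naming but not the function: it encodes tristetraprolin, a CCCH protein that binds AU-rich mRNA and promotes its decay.

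In proteins translated from the GENCODE transcripts, a KRAB motif was found in 52 of the 62 members and at least 3 C2H2 fingers in 60. The number of fingers ran from 0 in ZFP36 to 30 in ZNF850, with a median of 13. The 10 members without a KRAB motif by this search were ZNF146, ZNF260, ZNF345, ZFP36, ZNF574, ZNF526, ZNF575, ZNF576, ZNF428 and ZNF180. ZNF428 encodes a short protein of 188 residues with 1 such finger.

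RefSeq promoter windows (GRCh38.p14), from 250 bases before to 50 after the RefSeq start of each gene, were available for 55 members. RefSeq starts differ from the GENCODE gene starts behind the other coordinates given here by over 1000 bases in 12 of the 55, among them ZNF585B (7617 bases) and ZNF420 (70576 bases), so those windows lie at another start of the gene. Their median number of CpG dinucleotides was 20, against 14 over all 27305 windows of the same table, and they ranged from 6 in ZNF574 to 37. The windows of 6 members are shown because these genes carry the largest decreases, the pair of most alike proteins, or the back-to-back pair in which both genes fell. CpG dinucleotides are in capitals.

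ZNF793, chr19:37506689-37506988, plus strand: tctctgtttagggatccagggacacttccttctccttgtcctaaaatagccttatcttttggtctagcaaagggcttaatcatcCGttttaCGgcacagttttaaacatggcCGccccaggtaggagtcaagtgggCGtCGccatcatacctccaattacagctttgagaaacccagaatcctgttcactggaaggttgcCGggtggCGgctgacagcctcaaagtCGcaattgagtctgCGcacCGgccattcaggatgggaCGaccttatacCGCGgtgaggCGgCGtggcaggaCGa
ZFP82, chr19:36418595-36418894, minus strand: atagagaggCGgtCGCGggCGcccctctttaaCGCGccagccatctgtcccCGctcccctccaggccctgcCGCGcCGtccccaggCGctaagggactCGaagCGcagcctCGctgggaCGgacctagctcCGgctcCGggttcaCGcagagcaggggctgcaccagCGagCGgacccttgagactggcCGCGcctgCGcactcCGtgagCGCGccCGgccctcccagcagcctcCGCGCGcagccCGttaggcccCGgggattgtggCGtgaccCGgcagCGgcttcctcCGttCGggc
ZNF585A, chr19:37172646-37172945, minus strand: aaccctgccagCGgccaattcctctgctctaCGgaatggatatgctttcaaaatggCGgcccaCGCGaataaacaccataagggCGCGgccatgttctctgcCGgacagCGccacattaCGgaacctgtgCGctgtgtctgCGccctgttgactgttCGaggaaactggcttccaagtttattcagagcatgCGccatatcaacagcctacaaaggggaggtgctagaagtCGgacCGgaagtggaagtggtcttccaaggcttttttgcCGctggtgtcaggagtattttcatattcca
ZNF585B, chr19:37210487-37210786, minus strand: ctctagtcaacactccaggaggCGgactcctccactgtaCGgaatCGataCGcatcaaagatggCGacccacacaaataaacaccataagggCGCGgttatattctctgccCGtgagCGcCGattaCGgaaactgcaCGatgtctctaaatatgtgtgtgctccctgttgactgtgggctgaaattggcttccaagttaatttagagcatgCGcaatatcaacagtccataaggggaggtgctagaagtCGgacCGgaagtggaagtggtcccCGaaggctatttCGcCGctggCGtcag
ZNF829, chr19:36916242-36916541, minus strand: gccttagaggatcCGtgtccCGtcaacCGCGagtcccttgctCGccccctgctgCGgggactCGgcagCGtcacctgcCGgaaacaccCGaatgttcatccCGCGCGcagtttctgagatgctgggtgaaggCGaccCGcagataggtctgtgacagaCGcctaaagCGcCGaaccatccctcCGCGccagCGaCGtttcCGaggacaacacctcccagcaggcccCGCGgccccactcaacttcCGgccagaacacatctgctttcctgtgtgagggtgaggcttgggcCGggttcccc
ZNF568, chr19:36916082-36916381, plus strand: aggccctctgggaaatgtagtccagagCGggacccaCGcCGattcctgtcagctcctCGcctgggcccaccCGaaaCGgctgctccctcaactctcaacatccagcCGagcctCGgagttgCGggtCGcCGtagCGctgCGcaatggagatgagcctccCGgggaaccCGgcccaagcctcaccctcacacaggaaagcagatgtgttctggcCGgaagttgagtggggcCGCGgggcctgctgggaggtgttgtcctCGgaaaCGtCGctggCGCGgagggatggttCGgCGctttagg

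The windows of ZNF829 and ZNF568 lie on opposite strands and share 140 bases, since their RefSeq starts are 41 bases apart. Those of ZNF585A and ZNF585B were 73.3% identical over their alignment. GGGCGG (a GC box, either strand) was in the windows of 21 of the 55 members, 38.2%, against 44.6% of all windows. CCAAT (either strand) was in 14, 25.5%, against 35.7% of all windows. TATAAA (either strand) was in 0, against 12% of all windows. A match or its absence describes these letters in this window only.

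As a check of the labels, POU2F3 stood between 24511 and 27873 in every library. Among the other tuft cell genes of the list, AVIL and ASCL2 were lower and GFI1B and TRPM5 higher in resistant libraries. The neuroendocrine genes INSM1, CHGA and SYP were lower, and NEUROD1 was at most 5.49. PTPRC, PECAM1 and KRT5, which define blood, endothelial and basal cells, were at most 3.69 in any library. COL1A1, a collagen gene, was 59.7 ± 21.9 in parental and 269 ± 34.7 in resistant libraries (SD, n = 3), and its part in the results below was not tested. PLK1, the target of the inhibitor, went from 5311 ± 444 to 5509 ± 276 and did not pass the test (adjusted p = 0.598, limma, Benjamini-Hochberg). The low values gave a depth of 25597761 to 28489633 reads in parental and 22296592 to 23311675 in resistant libraries, so depth differed between the groups. A count of 3 reads equals a value of 2.67 to 3.23, an error limit for counting only.

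Across the 62 zinc finger genes, small decreases in the resistant cells were more frequent than increases. With limma on log2(value + 1) and Benjamini-Hochberg adjustment over all 16347 genes, 14 members fell, 3 rose and 45 did not pass the threshold of 0.05. The 17 called members make 27.4%, while 37.7% of all genes tested were called, so fewer of the members were called than of genes in general. The 14 that fell make 22.6%, near the 22.3% of the 13532 protein-coding genes tested that fell, and the 3 that rose make 4.84%, against 18.2%. A log2 fold change below 0 was measured in 45 of the 62, 72.6%, against 50.1% of all genes tested and 52.6% of protein-coding genes. The median log2 fold change was -0.20, with quartiles of -0.47 and 0.04, where the median over all genes tested was -0.00086. In RNA from whole cultures, fewer cells expressing a gene and less RNA per cell cannot be told apart.

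The summed value of the 62 members was 41152, 36214 and 38016 in the parental and 32586, 32295 and 32937 in the resistant libraries. All 3 resistant sums were below all 3 parental ones. Their mean was 84.8% of the parental mean, while the sum over all genes tested was 95.6% of its parental mean. Members with high values weigh most in the members' sum. The group mean of ZNF146 went from 5578 to 5930 and that of ZNF428 from 4279 to 3073. For the other protein-coding genes of the interval the sum was 89.4% of parental. For zinc finger genes of other regions it was 45.3% (19p12), 78.7% (distal 19q13.4), 86.8% (rest of chromosome 19) and 92.7% (other chromosomes). Values of the 2 groups did not overlap for 24 members, 20 with the resistant libraries lower and 4 higher. Of all protein-coding genes tested, 52.0% did not overlap, 28.5% with the resistant lower and 23.6% with them higher. An exact two-sided permutation test of 3 against 3 libraries cannot give a p below 0.10.

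The other 154 protein-coding genes of the same interval changed in both directions and reached larger extremes. Of these, 43 fell and 29 rose, 46.8% in all. Their median was -0.03, with quartiles of -0.26 and 0.29, about as far apart as those of the members. Of the neighbours with the smallest p in each direction, 5 are named here, and all but TBCB changed further than any zinc finger gene of the interval. GRIK5, a kainate receptor subunit, went from 664 ± 144 to 76.5 ± 12.2 (SD, n = 3, log2 fold change -3.09 ± 0.18). TBCB, a tubulin folding cofactor, had a log2 fold change of -0.72 ± 0.06. FXYD5, a modulator of the sodium pump, had one of 4.56 ± 0.28, the potassium channel gene KCNK6 one of 3.42 ± 0.24 and the epidermal gene DMKN one of 1.25 ± 0.12. All 5 passed the threshold in limma, with adjusted p after Benjamini-Hochberg from 2.08e-06 to 3.23e-05.

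**Figure D1:**
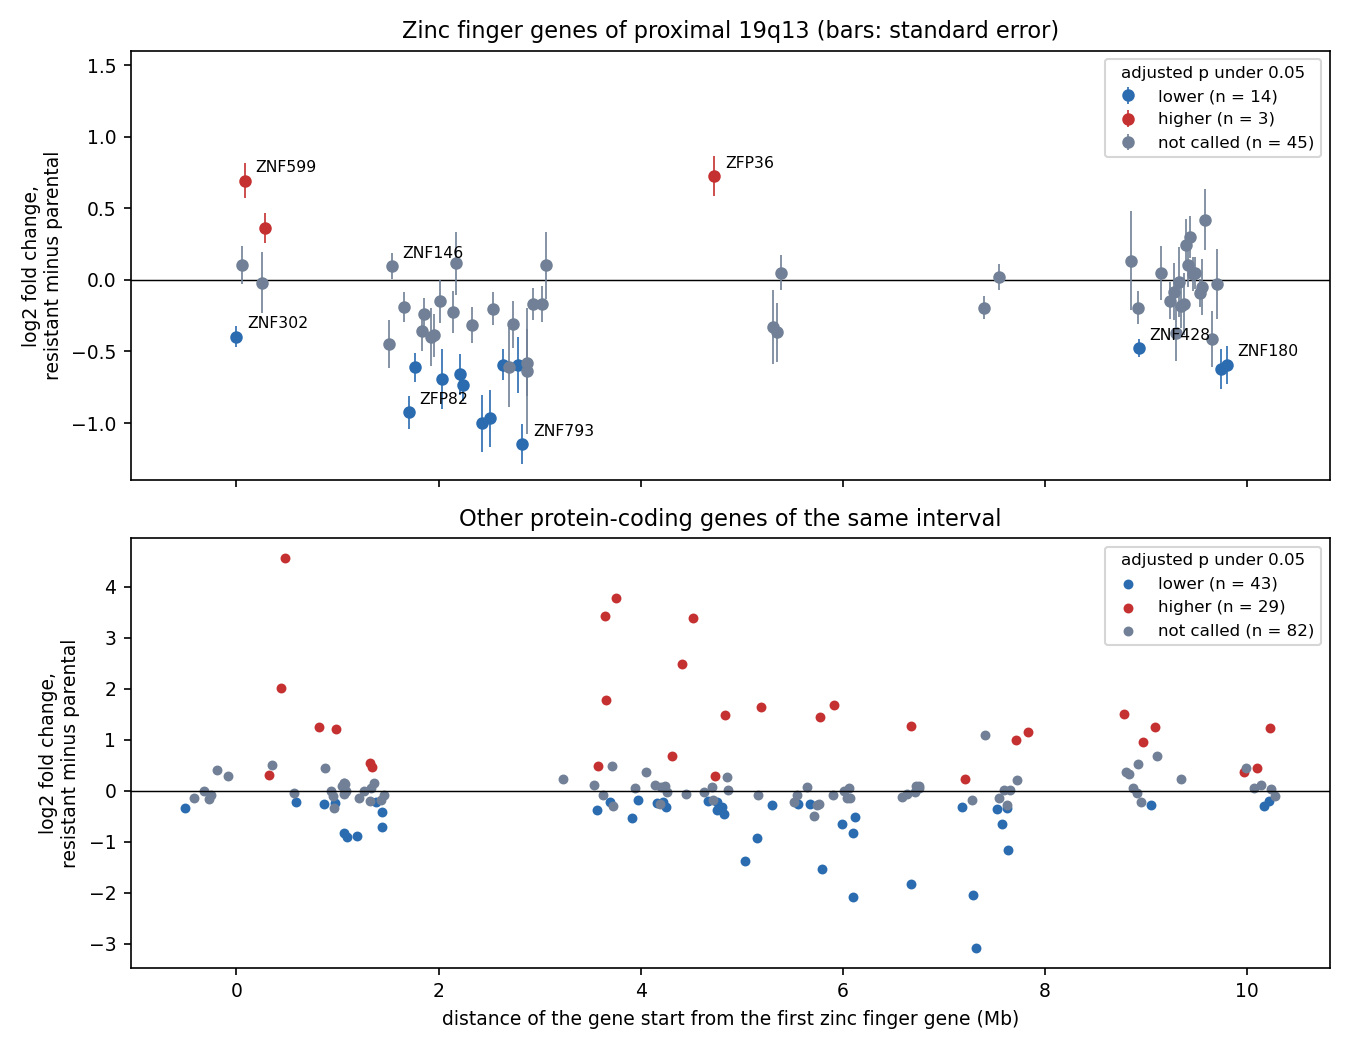
Log2 fold change (resistant minus parental) against the distance of each gene's start from the first zinc finger gene, in Mb, for the 62 members (above, with standard errors) and the 154 other protein-coding genes (below, on a wider vertical scale), coloured by the limma call. Of the 14 members that fell, 10 lie between 1.5 and 3.1 Mb, a span in which 0 other protein-coding genes that were tested start.

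The members were divided by position into 4 stretches. The second of these, from ZNF565 to ZNF573 (chr19:36182276-37817300), holds 29 members, of which 10 fell and 0 rose. These make 34.5%, beside the 22.3% of protein-coding genes that fell. At an unadjusted p under 0.05 in limma, 15 of the 29 passed, near the share of 6725 of the 13532 protein-coding genes tested. Without parental library 1 the count of called increases was 1, ZNF146. A log2 fold change below 0 was found for 26 of the 29, 89.7%, beside 52.6% of protein-coding genes tested, with a median of -0.40. No other protein-coding gene that was tested starts between ZNF565 and ZNF573. The flanking genes of the window that holds this stretch were 9 before ZNF565, of which 3 fell and 2 rose (median -0.08), and 11 after ZNF573, of which 2 fell and 4 rose (median 0.23). The difference between members and flanking genes was not tested, since the stretches were drawn with results of these data known.

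The other stretches held smaller shifts. In the first, from ZNF302 to ZNF792, 1 of 5 members fell and 2 rose, with a median of 0.10. In the third, from ZFP36 to ZNF526, 0 of 6 fell and 1 rose, with a median of -0.09 and 2 at an unadjusted p under 0.05. In the fourth, from ZNF575 to ZNF180, 3 of 22 fell and 0 rose, with a median of -0.07 and 3 at an unadjusted p under 0.05. Beside these counts, 6725 of the 13532 protein-coding genes tested had an unadjusted p under 0.05 in limma. Between ZNF575 and ZNF180 start 9 other protein-coding genes, of which 1 fell and 2 rose, with a median of 0.23.

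Each gene's log2 value was also set against its mean over the 6 libraries, and the median of these deviations was taken per library. In the 29 members of the second stretch it was 0.26, 0.16 and 0.16 in parental libraries 1, 2 and 3 and -0.24, -0.20 and -0.14 in resistant libraries 7, 8 and 9. The groups did not overlap, and parental library 1 was the highest. In the 22 members of the fourth stretch it was 0.11, 0.04 and -0.0021 in the parental and -0.12, -0.13 and 0.10 in the resistant libraries. There, resistant library 9 stood with the parental libraries and the groups overlapped. Over all genes tested these medians ran from -0.0041 to 0.01.

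**Figure D2:**
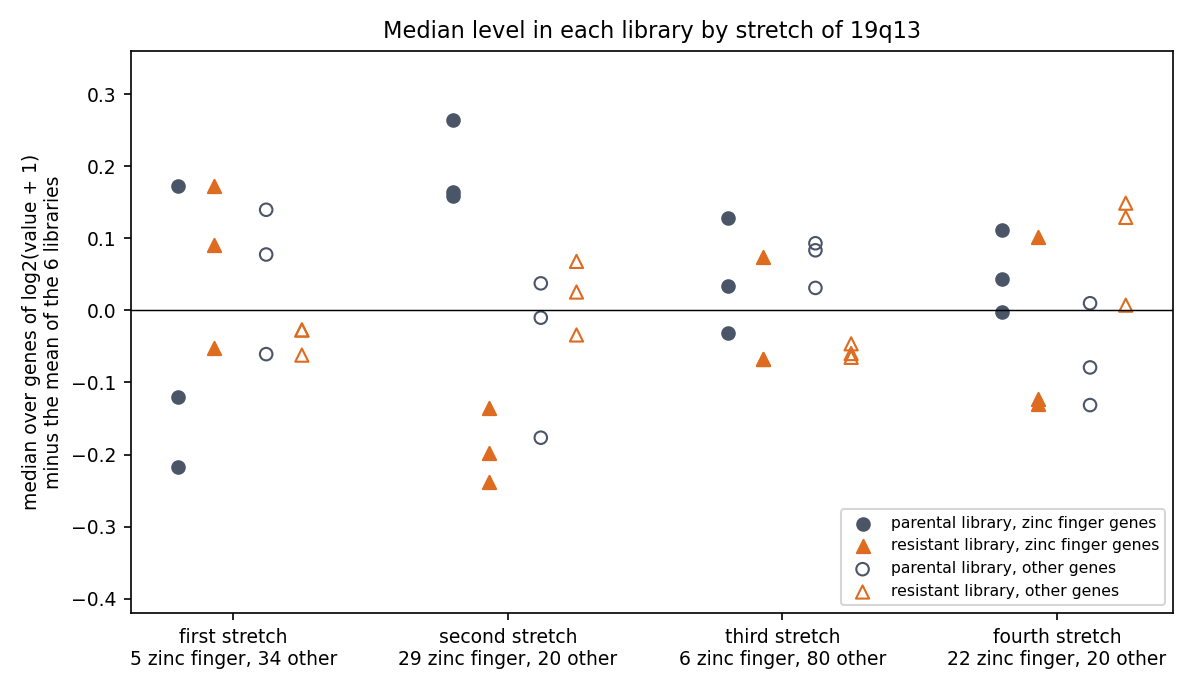
Median deviation of log2(value + 1) from each gene's mean over the 6 libraries, 1 point per library, for the members (filled, 5, 29, 6 and 22 genes) and the other protein-coding genes (open) of the 4 windows that hold the stretches, in order along the chromosome. In the second stretch the members' parental points lie at 0.16 or above and their resistant points at -0.14 or below, while the points of the genes that flank it overlap.

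ZNF793, a KRAB gene with 6 fingers at chr19:37506939-37548762, had the largest decrease. Its values were 668, 592 and 722 in parental libraries 1, 2 and 3 and 302, 346 and 249 in resistant libraries 7, 8 and 9. Every resistant library was below every parental one, and the mean fell from 661 ± 65.4 to 299 ± 48.8 (SD, n = 3), or to 45.3% of parental. The log2 fold change was -1.15 ± 0.14 (SE, adjusted p = 1.58e-04, limma, Benjamini-Hochberg). Its exons overlap genes of the opposite strand, including ZNF793-AS1, over 8.21% of their bases, and the sources do not state counting by strand.

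ZFP82, a KRAB gene with 12 fingers at chr19:36383120-36418644, measured 914, 745 and 874 in the parental and 417, 493 and 421 in the resistant libraries. The groups were far apart relative to their spread. Its log2 fold change was -0.93 ± 0.11 (adjusted p = 1.68e-04, limma, Benjamini-Hochberg), and none of its exon bases overlap another gene. ZFP14, the neighbouring KRAB gene, measured 541, 474 and 528 in the parental and 461, 415 and 476 in the resistant libraries. There the groups overlapped and the test was not passed (log2 fold change -0.19 ± 0.11, adjusted p = 0.189, limma, Benjamini-Hochberg).

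ZNF585A and ZNF585B encode KRAB proteins of 769 residues and 21 fingers each that were 94.5% identical, the most alike pair among the members. ZNF585A (chr19:37106734-37172741) measured 537, 393 and 427 in the parental and 265, 163 and 258 in the resistant libraries. ZNF585B (chr19:37181579-37218153) measured 791, 575 and 479 in the parental and 248, 303 and 385 in the resistant libraries. In both genes all resistant libraries were below all parental ones, with log2 fold changes of -1.0 ± 0.20 (adjusted p = 0.003) and -0.97 ± 0.20 (adjusted p = 0.00385, both limma, Benjamini-Hochberg). Of the 50-base words of their transcripts, 17.7% in ZNF585A and 25.5% in ZNF585B also occur in another gene, mainly in each other, so the division of reads between them is uncertain. Their sum does not depend on that division. Exons of both genes also overlap another gene of the same strand, and those of ZNF585B overlap ZNF383 on the opposite strand. Reads from these overlaps leave the sum of the pair uncertain, by an amount that was not measured. This sum went from 1067 ± 228 to 541 ± 91.8 (SD, n = 3), a log2 difference of -0.97. Resistant sums of 513, 466 and 643 were all below the lowest parental sum of 906.

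ZNF568, whose mouse counterpart represses a placental transcript of Igf2, has 15 fingers and lies at chr19:36916316-37005037. It measured 897, 897 and 1115 in the parental and 568, 602 and 565 in the resistant libraries. The resistant libraries all lay below the parental ones with an SD of 20.4, and the log2 fold change was -0.74 ± 0.11 (adjusted p = 4.21e-04, limma, Benjamini-Hochberg). A gene of the same strand overlaps 17.4% of its annotated exon bases. This leaves its counts uncertain, by an amount that this share of bases does not measure. ZNF829, its back-to-back neighbour with 9 fingers, measured 397, 305 and 334 in the parental and 218, 234 and 199.9 in the resistant libraries. It also separated by group, at a log2 fold change of -0.66 ± 0.14 (adjusted p = 0.00458, limma, Benjamini-Hochberg), and no exon base of ZNF829 overlaps another gene.

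By RefSeq starts, 6 pairs of members begin on opposite strands within 1000 bases of each other, and ZNF829 with ZNF568 was the 1 pair in which both members fell. In 4 of the 6, both log2 fold changes were below 0. By GENCODE gene starts there were 4 such pairs, 3 of them among the 6, and the fourth, ZNF585B with ZNF383, joined a gene that fell to one that did not pass (log2 fold change -0.20 ± 0.11, adjusted p = 0.193, limma, Benjamini-Hochberg). The RefSeq starts of ZNF569 and ZNF570 are 328 bases apart, and ZNF570 measured 381, 249 and 361 in the parental and 173, 236 and 242 in the resistant libraries. The highest resistant value lay below the lowest parental one by a small margin, and the fold change was -0.59 ± 0.19 (log2, adjusted p = 0.0349, limma, Benjamini-Hochberg). This call was lost without parental library 1, parental library 3, resistant library 7 or resistant library 8 (adjusted p from 0.0527 to 0.120, limma with Benjamini-Hochberg) and in limma without the trend (adjusted p = 0.0858). ZNF569 had a log2 fold change of -0.31 ± 0.16 (adjusted p = 0.162), and without resistant library 7 it passed at -0.47 (adjusted p = 0.0439, both limma, Benjamini-Hochberg).

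The RefSeq starts of ZNF565 and ZNF146 are only 22 bases apart. ZNF565 measured 155, 155 and 133 in the parental and 111, 97.5 and 115 in the resistant libraries, with no overlap between groups but an adjusted p of 0.06 (limma, Benjamini-Hochberg). It passed without the trend (adjusted p = 0.0266) and with quantile normalization (adjusted p = 0.0286, both limma, Benjamini-Hochberg). Other genes, including ZNF146 on the opposite strand, overlap 12.3% of the exon bases of ZNF565. The sources do not state counting by strand, so the value of ZNF565 is uncertain. ZNF146, a protein made almost only of fingers, measured 6482, 5121 and 5130.0 in the parental and 5991, 6011 and 5788 in the resistant libraries. Parental library 1 stood above all the others and the groups overlapped (log2 fold change 0.10 ± 0.09, adjusted p = 0.426, limma, Benjamini-Hochberg). Without parental library 1, ZNF146 was called higher at a log2 fold change of 0.21 (adjusted p = 0.0214, limma, Benjamini-Hochberg). In the pairs ZNF529 with ZNF382, ZNF461 with ZNF567 and ZNF790 with ZNF345, no member passed the threshold, except that ZNF461 passed without parental library 2 (log2 fold change -0.51, adjusted p = 0.0231, limma, Benjamini-Hochberg). ZNF382, described as a tumour suppressor, had a log2 fold change of -0.40 ± 0.20.

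**Figure D3:**
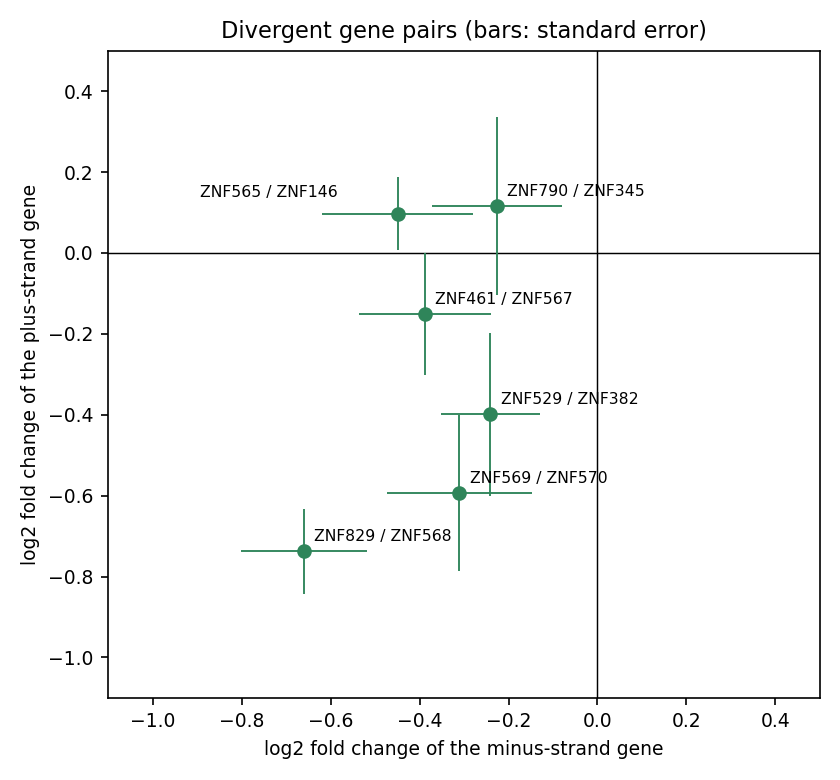
Log2 fold change of the plus-strand gene against that of the minus-strand gene for the 6 pairs whose RefSeq starts lie within 1000 bases of each other, with standard errors as bars. ZNF829 with ZNF568 lies lowest on both axes, and in the pairs with ZNF146 and ZNF345 the plus-strand gene lies above 0.

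Further decreases in the same stretch were measured in ZNF566, ZNF875 and ZNF850. ZNF566 (7 fingers) measured 1124, 992 and 899 in the parental and 642, 705 and 620.3 in the resistant libraries, a log2 fold change of -0.61 ± 0.10 (adjusted p = 0.00121, limma, Benjamini-Hochberg). ZNF875, also known as HKR1, measured 512, 504 and 516 in the parental and 315, 370.4 and 332 in the resistant libraries. Its parental libraries had an SD of 5.85 and lay above all resistant ones, and the log2 fold change was -0.59 ± 0.11 (adjusted p = 0.00179, limma, Benjamini-Hochberg). ZNF850, with 30 fingers the longest protein of the set at 1090 residues, measured 698, 699 and 518 in the parental and 301, 557 and 354 in the resistant libraries. Resistant library 8 lay above parental library 3, so the groups overlapped although the test was passed (log2 fold change -0.69 ± 0.21, adjusted p = 0.0256, limma, Benjamini-Hochberg). That call was lost without parental library 1 or 2, without resistant library 7 or 9 (adjusted p from 0.0736 to 0.0886, limma with Benjamini-Hochberg) and in limma without the trend (adjusted p = 0.0934).

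Among the 19 members of this stretch that did not pass the test, ZNF527 illustrates the spread. It measured 233, 274 and 249.7 in the parental and 148, 109.8 and 273 in the resistant libraries. Resistant library 9 lay within the parental range and resistant libraries 7 and 8 well below it, and the adjusted p was 0.108, while without library 9 ZNF527 passed at a log2 fold change of -0.98 (adjusted p = 0.00392, both limma, Benjamini-Hochberg). ZNF420, a KRAB protein known to bind p53, had a log2 fold change of -0.32 ± 0.13 (adjusted p = 0.0709) and passed without parental library 2 at -0.42 (adjusted p = 0.0304, both limma, Benjamini-Hochberg). ZNF260, without a KRAB motif, measured 2584, 1606 and 2076 in the parental and 1656, 1594 and 1557 in the resistant libraries. Parental library 2 fell among the resistant libraries (adjusted p = 0.0707), and without it ZNF260 passed at a log2 fold change of -0.53 (adjusted p = 0.00352, both limma, Benjamini-Hochberg).

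**Figure D4:**
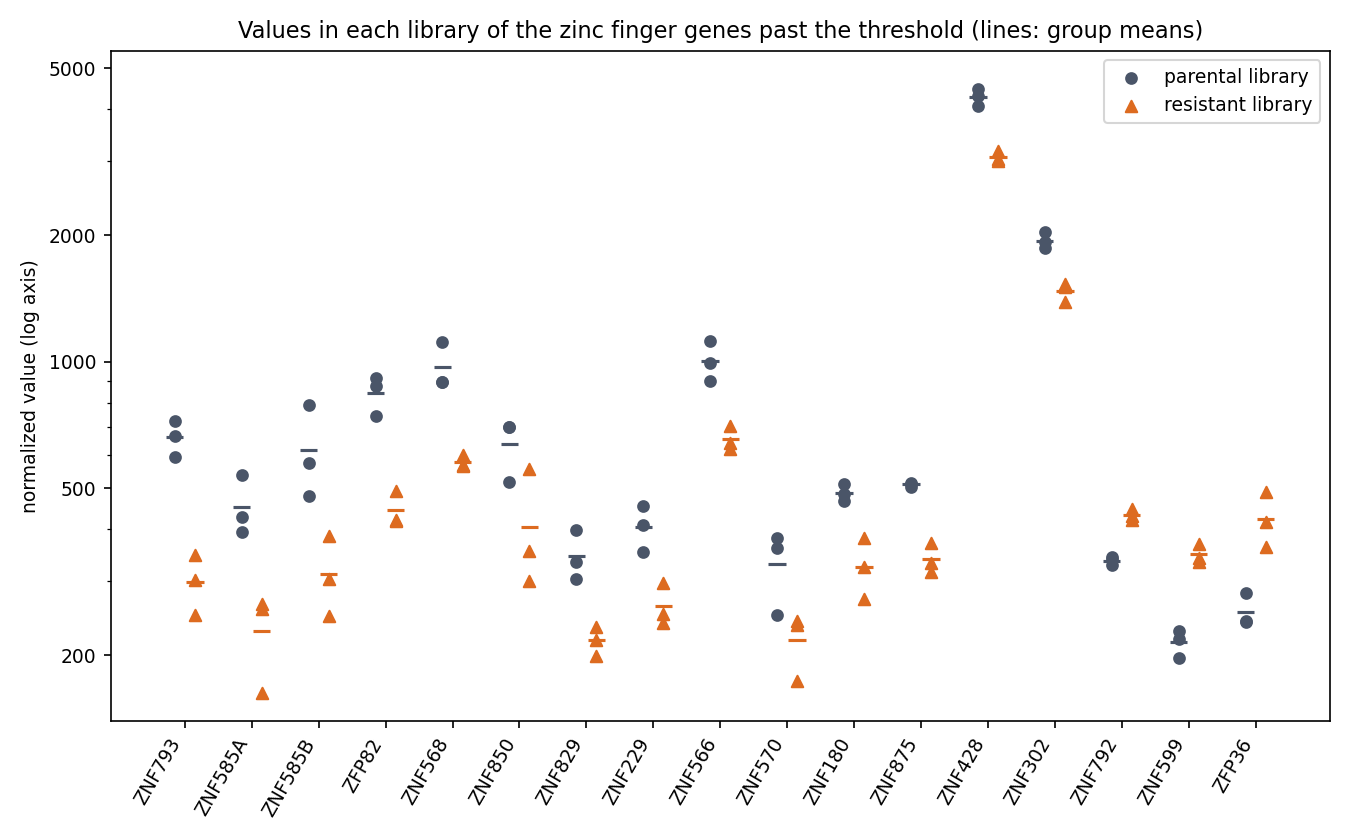
Normalized value in each parental and resistant library (log axis) for the 17 called members, with horizontal lines at the group means. The resistant points lie below the parental ones for 13 of the 14 members that fell, with ZNF850 the exception, and above them for ZNF792, ZNF599 and ZFP36.

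At the proximal edge, ZNF302, the first member along the chromosome (chr19:34677639-34686397), measured 2032, 1869 and 1924 in the parental and 1532, 1387 and 1507 in the resistant libraries. The groups did not overlap, and the log2 fold change was -0.40 ± 0.07 (adjusted p = 0.00204, limma, Benjamini-Hochberg). ZNF181, its neighbour, was unlike it in direction at 0.10 ± 0.14 (log2) and did not pass (adjusted p = 0.583, limma, Benjamini-Hochberg). The 2 genes share 314 words of 50 bases, and 15.7% of those of ZNF302 occur in another gene, so reads between them are divided with some uncertainty.

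ZNF599 and ZNF792, both KRAB genes near this edge, rose. ZNF599 (14 fingers, chr19:34758073-34773229) measured 198, 228 and 219 in the parental and 368, 342 and 335 in the resistant libraries. Its resistant libraries were all above its parental ones, at a log2 fold change of 0.69 ± 0.12 (adjusted p = 0.00169, limma, Benjamini-Hochberg). ZNF792 (13 fingers) measured 338, 328 and 343 in the parental and 429.9, 420.3 and 447 in the resistant libraries, a log2 fold change of 0.36 ± 0.10 (adjusted p = 0.0199, limma, Benjamini-Hochberg). The call of ZNF792 was lost without resistant library 7 (adjusted p = 0.0522) or resistant library 9 (adjusted p = 0.0660, both limma with Benjamini-Hochberg).

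ZFP36 (chr19:39406847-39409412), the mRNA decay factor, had the largest increase among the members. It measured 240.0, 281 and 242 in the parental and 363, 489.8 and 415 in the resistant libraries. The groups did not overlap, and the log2 fold change was 0.72 ± 0.14 (adjusted p = 0.00272, limma, Benjamini-Hochberg). The other 5 members of the third stretch did not pass. ZNF574 was the nearest, at 1800.4, 1670.2 and 1689 in the parental and 1644, 1415 and 1453 in the resistant libraries. Its log2 fold change was -0.20 ± 0.08 (adjusted p = 0.0795), and without resistant library 7 it passed at -0.26 (adjusted p = 0.0396, both limma, Benjamini-Hochberg).

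In the fourth stretch, ZNF428 fell from a high level. It measured 4299, 4073 and 4464 in the parental and 3001, 3043 and 3175 in the resistant libraries, and the groups were well separated (log2 fold change -0.48 ± 0.06, adjusted p = 2.73e-04, limma, Benjamini-Hochberg). SRRM5 on the opposite strand overlaps 32.1% of its exon bases, and reads of the 2 genes cannot be told apart without strand. ZNF229, a KRAB gene with 16 fingers (chr19:44417519-44448578), measured 408, 352 and 453 in the parental and 238, 297 and 251 in the resistant libraries, and its log2 fold change was -0.62 ± 0.14 (adjusted p = 0.00603, limma, Benjamini-Hochberg). Next to it, ZNF180 (12 fingers, chr19:44474428-44500524) measured 467, 511 and 485 in the parental and 380.1, 325 and 272 in the resistant libraries, with one of -0.59 ± 0.13 (adjusted p = 0.00632, limma, Benjamini-Hochberg). Both had all resistant libraries below all parental ones and are the last members along the chromosome.

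The remaining 19 members of the fourth stretch did not pass. Among them is ZNF224, a KRAB repressor known from the aldolase A gene. It measured 407, 514 and 472 in the parental and 442, 440.2 and 624 in the resistant libraries (log2 fold change 0.10 ± 0.15, adjusted p = 0.641, limma, Benjamini-Hochberg). Genes of the opposite strand overlap 42.4% of the exon bases of ZNF224 (ZNF225-AS1) and 41.4% of those of ZNF155 (ZNF230-DT), so the values of both are uncertain. The alike proteins of ZNF230, ZNF222 and ZNF223 (76.4 to 78.2% identical) had log2 fold changes of -0.01 ± 0.25, -0.19 ± 0.15 and -0.17 ± 0.22. The sum of ZNF222 and ZNF223 went from 369 ± 12.4 to 333 ± 75.3 (SD, n = 3), within the spread of the resistant libraries. The value of ZNF223 is uncertain, since 62.4% of its 50-base words recur elsewhere, mostly in an overlapping gene of the same strand. The highest log2 fold change among these 19 was that of ZNF233, 0.42 ± 0.21 (adjusted p = 0.144, limma, Benjamini-Hochberg).

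By level per kilobase of transcript, on the deposited scale and averaged over 6 libraries, ZNF428 (3164) and ZNF146 (1719) stood far above the rest. ZNF302 (599), ZNF574 (522) and ZNF260 (349) followed. The lowest levels were those of ZNF546 (6.23), ZNF540 (14.6) and ZNF575 (21.8), and the median member was at 78.5. Of the members named as highest per kilobase, ZNF428 and ZNF302 were among those that fell, while ZNF146, ZNF574 and ZNF260 did not pass. Across the 62 members, mean value and log2 fold change had a Pearson r of -0.01 and a Spearman rho of -0.17.

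What the called members shared beyond position was limited. The 14 that fell had a median of 12 fingers, against 13 in the 45 not called, and a KRAB motif was found in 12 of 14 and in 38 of 45. Their median transcript length was 5141 bases, against 3660 in those not called, and their promoter windows held a median of 24 CpG against 19.5. The windows of the 3 members that rose also held a median of 24 CpG. Across the 62 genes, log2 fold change and transcript length had a Pearson r of -0.40 and a Spearman rho of -0.34. Within the 29 genes of the second stretch these were -0.44 and -0.42, and in the other 33 they were -0.17 and 0.01. Across 430 zinc finger genes elsewhere they were 0.01 and 0.05. These are descriptions over genes that share the same 6 libraries and many of which are related by duplication. The number of fingers had an r of -0.16 and a rho of -0.04 with the log2 fold change.

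Zinc finger genes of other regions, taken by the same symbols and minimum, are given for comparison. The minimum is a mean over all 6 libraries, so a gene very low in resistant libraries can enter through the parental ones alone. This was not checked for the groups of other regions, so their shares and medians may depend partly on the minimum. In the 19p12 cluster, 18 of 23 fell and 0 rose, and the log2 fold change had a median of -1.77 and a lower quartile of -5.28. In distal 19q13.4, 48 of 96 fell and 0 rose, with a median of -0.34. In the rest of chromosome 19, 17 of 55 fell and 2 rose (median -0.24). On other chromosomes, 60 of 256 fell and 25 rose (median -0.11). The median of proximal 19q13, -0.20, lay between those of the rest of chromosome 19 and of other chromosomes. Its second stretch had a median of -0.40, but was drawn with results of these data known, so it is not comparable with a whole region. Log2 fold changes below 0 made 100% in 19p12, 79.2% in distal 19q13.4, 80% in the rest of chromosome 19 and 64.8% on other chromosomes. The 72.6% of proximal 19q13 lay among these shares. Differences between these groups were not tested.

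**Figure D5:**
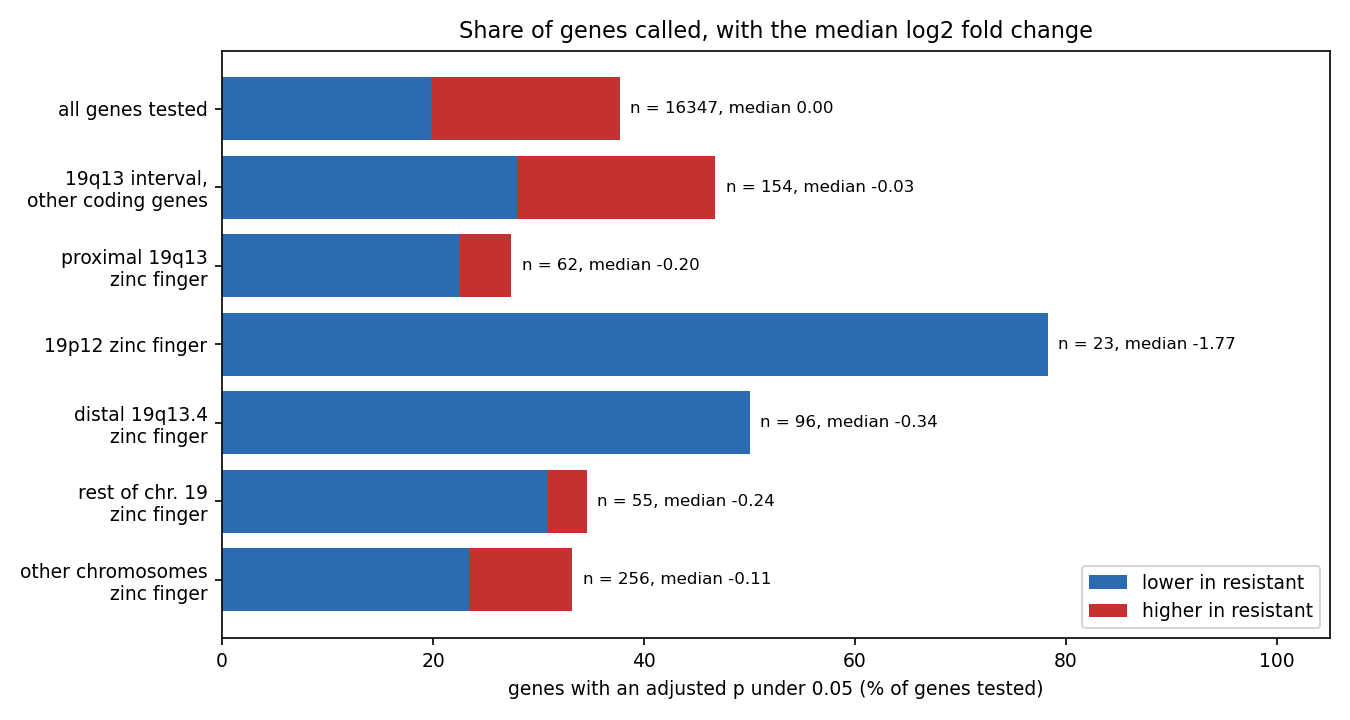
Share of genes with an adjusted p under 0.05, in percent and divided into lower and higher in resistant cells, for all genes tested, the protein-coding neighbours, the zinc finger genes of proximal 19q13 and those of other regions, with the number of genes and the median log2 fold change of each. The bar of proximal 19q13 reaches 27.4% and that of 19p12 78.3%.

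Of 27 genes for proteins that act with KRAB zinc fingers or in the same silencing pathway, all were tested, 6 fell and 3 rose, with a median log2 fold change of -0.05. These 9 of 27 stand beside the 37.7% of all genes and 40.5% of protein-coding genes called. Of the protein-coding genes tested, 22.3% fell and 18.2% rose. TRIM28, the corepressor bound by the KRAB box, went from 26996 ± 1158 to 23606 ± 2771 (log2 fold change -0.20 ± 0.08, adjusted p = 0.0897, limma, Benjamini-Hochberg). SETDB1, which writes H3K9me3, had a log2 fold change of -0.03 ± 0.06 (adjusted p = 0.75, limma, Benjamini-Hochberg). Neither passed the test. Among those that fell were the HP1 genes CBX5 (-0.38 ± 0.07, log2) and CBX3 (-0.27 ± 0.08), the H3K9 methyltransferase gene SUV39H1 (-0.29 ± 0.09) and the deacetylase gene HDAC1 (-0.38 ± 0.07). TRIM24, a chromatin reader related to TRIM28, fell by 0.48 ± 0.07 and UHRF1, a partner of DNMT1, by 0.35 ± 0.06 on the log2 scale. ATRX, a chromatin remodeller (0.42 ± 0.07), MPHOSPH8, a HUSH complex subunit (0.42 ± 0.07), and the maintenance DNA methyltransferase gene DNMT1 (0.23 ± 0.06) rose. Adjusted p of these 9 ran from 3.99e-04 to 0.0277 (limma, Benjamini-Hochberg).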

How the data were processed

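Values are those of 3 parental and 3 resistant libraries. Per the labels and the study's methods, the authors trimmed reads with Trimmomatic 0.38, quantified them with RSEM 1.3.1 and STAR on GRCh38 with Gencode version 43, and normalized them with DESeq2 1.30.0. What they deposited is thus a normalized signal for each gene and library, not counts. Only 34.7% to 60.8% of low values were whole reads within 0.02, so no count test was run. Symbols, positions and transcripts came from GENCODE version 44.

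All 16347 genes with a mean of at least 10 entered 1 fit of limma 3.58.1 (in R 4.3.3) to log2(value + 1), which compared the 2 groups with no covariate and an intensity trend, two-sided. P-values were adjusted by Benjamini-Hochberg, at 0.05. The shares by direction given for comparison are over protein-coding genes. The fit was tested on simulated data. The limit of 3 reads covers counting error only. Fold changes of low genes are understated by the pseudocount. Fingers, KRAB motifs (first 200 residues), identities and 50-base words were computed with Python 3.11.15 and Biopython 1.88. The members, stretches and lists were chosen with earlier results of these data known.

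Members were named where called with groups that do not overlap (up to 10 in each direction), among the 5 highest means, in pairs at 75% identity or more, or without KRAB fingers by sequence. Up to 3 neighbours in each direction by p, called silencing genes and markers were also named, apart from 2 genes that are not reported here. ZNF850, ZNF875, the divergent pairs and other members given as examples were chosen after values were seen. Alternatives were pseudocounts 0.1 and 10, no minimum, a minimum of 50, TMM scaling, quantile normalization, no trend, at least 3 fingers, and each library left out.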

Additional observations from a re-analysis of the deposited data

How the results depend on the processing

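None of the results recomputed changed direction under the alternatives. The number of called members, 17, ran from 15 to 21, that of members that fell, 14, from 12 to 18, and the members' median log2 fold change from -0.25 to -0.19. Of the 17 called members, 14 kept the call under every alternative in which they were members, and ZNF850, ZNF570 and ZNF792 did not. Of the members not called, 12 passed under at least 1 alternative. ZNF571 passed without parental library 2 (log2 fold change -0.74) and with quantile normalization (-0.71), ZNF780B without parental library 2 (-0.60), ZNF155 without resistant library 9 (-0.58) and ZNF225 without the trend (0.30), and the others are given beside their values. With 1 library left out at a time, the median of the 29 members from ZNF565 to ZNF573 ran from -0.50 (without parental library 2) to -0.35, and the number called higher there from 0 to 1, ZNF146 without parental library 1. The median of the 22 members from ZNF575 to ZNF180 ran from -0.15 to -0.0053 over all alternatives. The summed value of the members in resistant libraries, as a percent of parental, ran from 82.4 without parental library 2 to 87.9 without parental library 1. These values per stretch were added after the data were seen. The causes were not tested. The share of all genes called ran from 20.4% without a minimum, where more genes were tested, to 42.3% with a minimum of 50. No paired analysis was run. The paper calls the parental and resistant cells matched. The parental libraries are numbered 1 to 3 and the resistant libraries 7 to 9, so which libraries would pair is not given. A possible effect of the time of RNA collection was therefore not modelled.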
